A study of Mus musculus with 22 samples.

Results

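The livers of male mice kept on regular chow were compared between Nat1/2 knockout (KO) and wildtype (WT) animals, across all genes measured and with attention to the genes that lie away from the deleted locus. The 8 arrays with the chow diet in their title were taken, 4 KO and 4 WT animals, out of 22 arrays from 20 animals in the series. All mice were of the C57BL/6 strain, and the WT animals were littermates of the KO animals. The other males, 3 KO and 3 WT, received a high-fat, high-sucrose diet (HFHS), and 3 KO and 3 WT females received the HFHS diet only. The chow supplied 13.5% of its energy as fat, 25.2% as protein and 61.3% as carbohydrate, and was fed for 12 weeks. The mice were 12 weeks old when housed, and the protocol leaves it uncertain whether the HFHS males had first passed through a chow period. The 8 chow arrays carry 1 batch label, so the chow comparison lies within a batch. The sources used here do not state how the deletion was made, whether it is confined to any tissue or how many founder lines were used.

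NAT1 and NAT2 are cytosolic enzymes that transfer an acetyl group from acetyl coenzyme A to arylamine and hydrazine drugs and carcinogens. In mice the Nat genes lie side by side on chromosome 8, and Nat2 is the form that acetylates many xenobiotics in liver. The series title links their absence to energy metabolism and fatty acid oxidation, the process by which mitochondria shorten fatty acids to acetyl coenzyme A.

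Values are log2 expression levels as deposited, so a difference of 1 is a doubling. Genes entered the test when 3 or more of the 22 arrays exceeded 4.57, the median of the whole table. Array medians of the chow animals lay between 4.56 and 4.62. The labelled tissue was borne out by hepatocyte genes. Albumin (Alb), the main plasma protein made by hepatocytes, stood at 13.48, 13.43, 13.51 and 13.54 in WT 1 to 4 and at 13.53, 13.52, 13.48 and 13.44 in KO 1 to 4. The 14 hepatocyte markers tested had a median KO minus WT difference of 0.01. The first principal component of the 8 arrays held 20.5% of the variance with WT 2 at the far end of it (25.0), and the second held 18.5% with WT 1 at the far end (−23.5). WT 1 was the animal farthest from its own group in 17.9% of genes and WT 2 in 14.4%, against 9.73% for KO 3. In whole liver, fewer cells of a type and less RNA per cell cannot be told apart.

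The targeted genes separated the animals as labelled. Nat2 (Entrez 17961) read 6.79, 6.85, 6.85 and 6.42 in WT 1 to 4 and 3.82, 3.89, 3.81 and 3.75 in KO 1 to 4. Nat2 fell 7.52-fold (log2 difference −2.91 ± 0.14 SE, limma adjusted p = 2.24e-10), and the KO readings lay under the table median. Nat1 (Entrez 17960) read 3.31, 2.96, 3.95 and 3.38 in WT and 2.31, 2.42, 2.30 and 2.09 in KO. Nat1 was under the table median in every chow array, so its difference of −1.12 compares weak signals (exact two-sided permutation p = 0.0286, the smallest that 4 against 4 animals allow). Nat3 (Entrez 17962), a related gene not named in the genotype, read 3.25, 3.11, 3.13 and 3.30 in WT and 4.54, 3.79, 4.37 and 4.65 in KO. The KO animals were all above the WT animals (difference 1.14, exact permutation p = 0.0286), again with only 1 of the 8 arrays above the table median.

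Of 13871 tested genes, 5 were called at a limma adjusted p below 0.05 (0.0360%), 3 higher (0.0216%) and 2 lower (0.0144%) in KO, and every one of them lies on chromosome 8. Besides Nat2 these were Bst2, Zfp963, Zfp868 and Mvb12a. At an unadjusted p below 0.05, 608 genes passed (4.38%), and the KO and WT values did not overlap for 430 genes (3.10%), of which 226 were higher in KO (1.63%) and 204 lower (1.47%). The differences of all genes were balanced, with 49.9% above 0 and a median of −0.00028.

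Bst2 (Entrez 69550) encodes tetherin, an interferon-induced membrane protein that holds enveloped viruses at the cell surface. It read 11.02, 11.17, 10.95 and 11.14 in WT and 8.76, 8.72, 10.36 and 8.77 in KO, so that the groups did not overlap but KO 3 stood near the WT animals. Bst2 fell 3.79-fold (log2 −1.92 ± 0.26 SE, limma adjusted p = 0.00205), and by 2.32 on the log2 scale without KO 3. Its RefSeq promoter (GRCm38.p6) holds the core of the interferon-stimulated response element, GAAA followed after 2 bases of any kind by GAAA, which is found in many interferon-driven genes. The site is shown because Bst2 was the 1 called gene of the interferon list. It is written with 10 bases on each side, 5′ to 3′ on the strand of the gene, with the fixed letters of the second match of an overlapping pair in capitals, at chr8:71537577-71537606.
Bst2: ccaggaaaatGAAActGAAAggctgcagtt
Of the 28 interferon-list genes with a RefSeq promoter window (250 bases before to 50 after the start), 17 held this core on either strand (60.7%), against 3.99% of 27025 genes. The list was drawn up from interferon-driven genes, so a high share follows from that choice. The other 12 tested genes with a match had differences from −0.40 to 0.26 with a median of −0.10, and 3 of them were above 0.

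Zfp963 and Zfp868 encode zinc finger proteins, and Mvb12a encodes a subunit of the ESCRT-I complex that sorts membrane proteins into endosomes. Zfp963 (Entrez 620419) read 5.48, 5.34, 6.00 and 5.34 in WT and 7.13, 7.07, 7.39 and 7.03 in KO. It rose 3.06-fold (1.61 ± 0.15 SE, limma adjusted p = 9.86e-06), and each KO animal was above each WT animal. Zfp868 (Entrez 234362) read 4.73, 4.93, 5.05 and 4.91 in WT and 5.95, 5.39, 6.03 and 5.81 in KO. It rose 1.85-fold (0.89 ± 0.14 SE, adjusted p = 0.00985), without overlap but with KO 2 close to WT 3. Mvb12a (Entrez 73711), the next tested gene after Bst2, read 7.31, 7.32, 7.38 and 7.27 in WT and 7.87, 7.89, 7.82 and 8.12 in KO. It rose 1.52-fold (0.61 ± 0.09 SE, adjusted p = 0.00757), and its WT animals differed among themselves by little. In males and females on HFHS the differences were 1.09 and 1.18 for Zfp963, 0.84 and 0.99 for Zfp868, 0.54 and 0.62 for Mvb12a, and −2.29 and −2.46 for Bst2. In HFHS males 5 genes were called (0.0360%) and in HFHS females 7 (0.0505%).

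**Figure D1:**
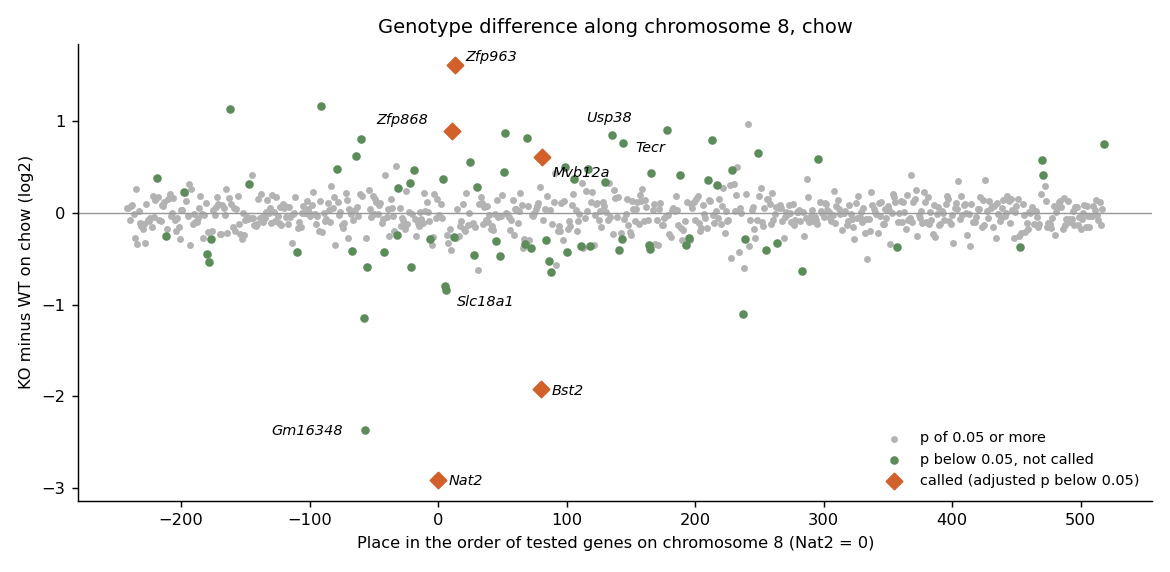
KO minus WT difference on chow (log2, vertical axis) for each tested gene of chromosome 8, by its place in gene order counted from Nat2 at 0 (horizontal axis). Orange diamonds are the 5 called genes, green points have an unadjusted limma p below 0.05 and grey points do not. The called genes other than Nat2 lie 11 to 81 genes after Nat2.

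The neighbourhood of Nat2 held more small p values than the rest of the genome. On chromosome 8, 80 of 761 tested genes had an unadjusted limma p below 0.05 (10.5%), 44 did not overlap (5.78%) and 5 were called (0.657%). In the order of RefSeq gene starts, the share was 23% among the 100 tested genes after Nat2, 16% among the next 100 and 11% among the 100 after those. Beyond 300 genes after Nat2 it was 2.29%, near the 4.02% of genes on other chromosomes. On the other side of Nat2 it was 15.0% among the nearest 100 genes and 6.34% farther out. The chromosome with the next highest share was 3, at 5.62%. Directions were mixed, with 41 of the 100 genes after Nat2 higher in KO.

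Several chromosome 8 genes missed the threshold with groups that did not overlap. The noncoding RNA gene Gm16348 differed by −2.37 (limma adjusted p = 0.213), a larger difference in size than that of Bst2. Its WT readings spread from 4.99 to 7.38, and its KO readings all lay under the table median. Tecr encodes the last enzyme of very-long-chain fatty acid elongation. It read 10.10, 10.31, 10.06 and 10.37 in WT and 11.01, 10.92, 10.85 and 11.08 in KO, a difference of 0.76 (limma adjusted p = 0.134). The deubiquitinase gene Usp38 read 6.43, 6.64, 7.09 and 6.65 in WT and 7.51, 7.63, 7.51 and 7.56 in KO, a difference of 0.85 (adjusted p = 0.0680). Pde4c, a cyclic AMP phosphodiesterase, differed by 0.87 (adjusted p = 0.109). Ces1d, which encodes a liver carboxylesterase that hydrolyses triacylglycerol, differed by 0.46 (adjusted p = 0.498), with WT at 9.44 to 9.89 and KO at 10.04 to 10.28. Tm6sf2, which acts in the lipid loading of secreted lipoproteins, differed by 0.55 (adjusted p = 0.602).

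KO 3 did not carry the same levels as the other KO animals at each of these genes. Slc18a1, a vesicular monoamine transporter gene 6 places after Nat2, read 5.24, 5.0, 5.07 and 4.85 in WT and 3.86, 3.89, 4.96 and 4.10 in KO. KO 3 therefore lay inside the WT range, at 7.62% of the distance from the WT mean to the mean of the other 3 KO animals. Slc18a1 was not called with all animals (−0.84, limma adjusted p = 0.218) and was called without KO 3 (−1.09, adjusted p = 0.000385). Ocel1 read 5.68, 5.72, 5.63 and 6.12 in WT and 6.81, 6.86, 6.08 and 6.65 in KO, where KO 3 was again within the WT range and at 29.6% of the distance. For Bst2 KO 3 stood at 30.7%. At other genes KO 3 stood nearer to the other KO animals, at 139% of the distance for Zfp868, 120% for Zfp963, 94.2% for Usp38, 80.9% for Tecr and 78.0% for Mvb12a, and at 100% for Nat2 itself. Values in between were 73.0% for Use1, 69.4% for Trmt9b, 67.3% for Tm6sf2 and 45.1% for Lncbate1. Besides Nat2, 15 genes named in an earlier analysis were measured this way. KO 3 was the KO animal nearest to WT at 7 of them, against 2 or 3 for each of the others. Some of these genes are direct neighbours, such as Use1 and Ocel1 or Bst2 and Mvb12a, and the set was chosen with earlier results known. The count was not tested. Other KO animals also lay near WT at single genes. For Lsm4, KO 4 stood at 9.34% and KO 2 at 23.1%, with KO 3 at 234.5%. KO 2 stood at −3.64% for Lncbate1 and 47.4% for Zfp868. For Gm16348 and Pde4c, KO 3 stood at 126% and 92.6%. On HFHS, male KO 2 read 6.65 for Gm16348, above every HFHS WT animal. The other HFHS KO animals read 3.34 to 4.03 for that gene. At Slc18a1, Ocel1 and Bst2 the KO and WT animals on HFHS did not overlap. Slc18a1 read 3.98 to 4.46 in KO and 4.92 to 5.26 in WT there, Ocel1 read 6.66 to 7.28 and 5.51 to 6.41, and Bst2 read 8.26 to 8.94 and 10.81 to 11.2.

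**Figure D2:**
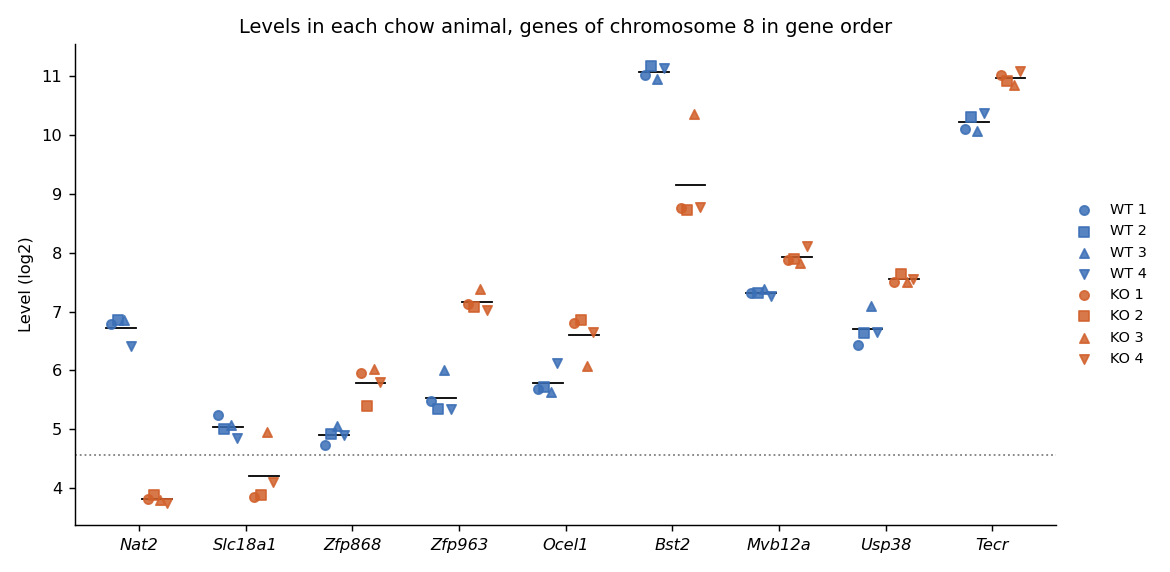
Level of 9 genes of chromosome 8 (log2, vertical axis) in each of the 8 chow animals, in gene order from Nat2. Blue marks WT and orange KO, the marker shape gives the animal number, bars are group means and the dotted line is the table median of 4.57. KO 3 (upward triangle) lies near or within the WT animals for Slc18a1, Ocel1 and Bst2 and nearer to the other KO animals for the genes between and after them.

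Away from chromosome 8, 0 of 13094 tested genes were called by limma (0%). At an unadjusted p below 0.05, 526 passed (4.02%), and 386 did not overlap (2.95%). The smallest adjusted p was that of Setdb2 (0.145), and in 9 other ways of filtering, scaling or fitting the same animals the count was 0 as well, with a smallest adjusted p of 0.0614. The genes with the smallest p in each direction are therefore given by their values.

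Setdb2 (Entrez 239122), on chromosome 14, encodes a methyltransferase for lysine 9 of histone H3 that represses transcription. It read 6.70, 7.17, 7.86 and 7.35 in WT and 8.16, 8.10, 8.17 and 7.92 in KO, with a WT range of over 1 log2 unit and KO animals close together. The difference was 0.82 ± 0.17 SE (limma adjusted p = 0.145). Without WT 3, the WT animal nearest to the KO group, it was 1.01 (limma adjusted p = 0.00342). It was −0.27 in males and −0.13 in females on HFHS. Phf11c, the next tested gene to Setdb2 in gene order, read 4.32, 4.97, 4.79 and 5.02 in WT and 5.50, 5.40, 5.38 and 5.90 in KO, a difference of 0.77 (adjusted p = 0.999). The other genes of that family beside it differed by −0.15 (Phf11a), −0.20 (Phf11b) and −0.20 (Phf11d). Among the 20 tested genes nearest to Setdb2, 3 had an unadjusted limma p below 0.05, namely Phf11c, Arl11 (0.42) and Ebpl (−0.30). The share over all genes off chromosome 8 was 4.02%. Groups did not overlap for 2 of the 20, against 2.95% off chromosome 8, and 8 of the 20 were higher in KO. These neighbours were looked up after the values of Setdb2 and Phf11c had been seen.

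Among the others with higher values in KO, Wee1, a kinase that holds back entry into mitosis and whose gene is under clock control, read 7.86, 7.64, 8.07 and 7.62 in WT and 8.34, 8.42, 8.11 and 8.22 in KO. The groups touched without overlapping (difference 0.47, limma adjusted p = 0.251). Fmo5, a flavin monooxygenase abundant in liver, read 10.26, 10.04, 10.34 and 10.11 in WT and 10.65, 10.51, 10.55 and 10.55 in KO (difference 0.38, adjusted p = 0.773). Trim30d, of a family of antiviral and immune regulators, differed by 0.75 from WT levels of 4.14 to 5.02. Trim34a, 4 tested genes away, had the other sign (−0.94), with KO 1 at 6.13 above every WT animal and the other KO animals at 4.15 to 4.46. Pcdhgb2, a cell adhesion gene, differed by 0.66, the splicing factor gene Rnps1 by 0.61, Mipol1 by 0.53, the noncoding RNA gene Jpx by 0.46, the F-box gene Fbxl22 by 0.43 and the dopamine transporter gene Slc6a3 by 0.41. Apart from Wee1, none of these genes had an adjusted p below 0.3. All WT readings of Jpx (4.00 to 4.31) and of Slc6a3 (4.15 to 4.39) lay under the table median.

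With lower values in KO, Rdh9, a retinol dehydrogenase of liver, read 8.82, 8.29, 7.99 and 8.41 in WT and 8.01, 7.56, 7.77 and 7.39 in KO. WT 3 and KO 1 overlapped there (difference −0.70, limma adjusted p = 0.354). Cnp, an enzyme best known from myelin, read 5.41, 5.18, 4.87 and 5.07 in WT and 4.18, 4.67, 4.67 and 4.61 in KO (difference −0.60, adjusted p = 0.196). Ap3s1, a subunit of the AP-3 vesicle coat, differed by −1.23 but lay under the table median in KO (2.92 to 3.65) and in WT 2 (3.56). Snrnp35, of the minor spliceosome, differed by −0.60, Syndig1l by −0.53, the zinc transporter gene Slc39a13 by −0.51 and Sh3glb2 by −0.49. The mitochondrial carrier gene Sfxn3 differed by −0.47, Gpx4, whose enzyme reduces lipid peroxides, by −0.46 and Zc3h4 by −0.39. None of these 10 genes was called with all animals. All KO readings of Sfxn3 (4.29 to 4.52) lay under the table median.

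**Figure D3:**
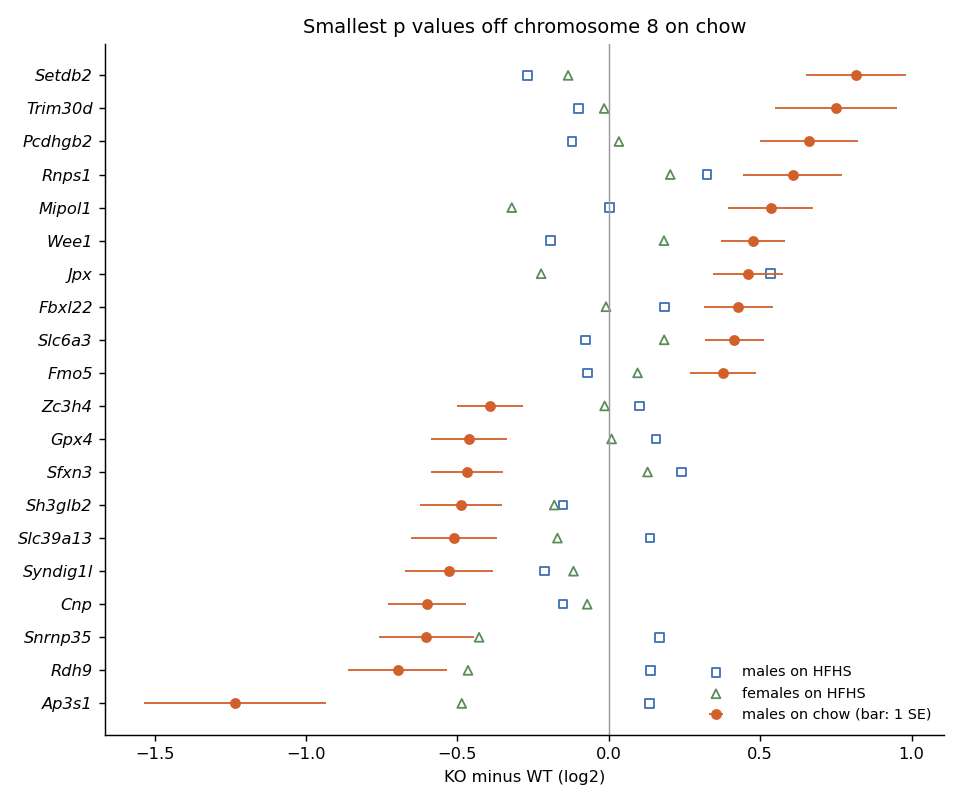
KO minus WT difference (log2, horizontal axis) for the 20 genes off chromosome 8 with the smallest limma p on chow, 10 in each direction. Filled circles with bars of 1 SE are chow males, open squares HFHS males and open triangles HFHS females. The chow differences lie between −1.23 and 0.82, and those of Setdb2 on HFHS lie on the other side of 0.

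The largest differences without overlap off chromosome 8 included genes that vary among animals, such as Foxq1 and Gadd45g. Foxq1, a forkhead transcription factor, read 7.46, 6.50, 8.19 and 6.87 in WT and 5.85, 6.05, 6.01 and 6.49 in KO (−1.16, limma adjusted p = 0.796), so WT 2 and KO 4 nearly met. Gadd45g, a stress-responsive growth arrest gene, read 5.58, 5.20, 6.57 and 5.27 in WT and 4.75, 4.75, 3.63 and 5.09 in KO (−1.10, adjusted p = 0.999). Noct, a gene with a strong daily rhythm in liver, read 6.18, 6.72, 6.93 and 6.88 in WT and 7.47, 7.41, 7.54 and 7.32 in KO (0.76, adjusted p = 0.999). The stress kinase gene Map2k6 differed by 0.78, the acyl-CoA thioesterase gene Acot9 by −0.73 and the phosphatase gene Acpp by −0.75.

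Genes of mitochondrial fatty acid oxidation, to which the title points, lay close to WT on chow. Of 20 tested, 7 were higher and 13 lower in KO, and the median difference was −0.02. By limma 0 were called, against 0.0360% of all genes, and 0 had an unadjusted p below 0.05, against 4.38%. Counts of 0 among 20 genes are near those shares. Cpt1a, the carnitine palmitoyltransferase that controls entry of fatty acids into mitochondria, read 10.00, 10.13, 9.81 and 9.97 in WT and 9.76, 9.55, 9.90 and 9.87 in KO (−0.21, limma adjusted p = 0.999). KO 3 and KO 4 lay within the WT range. Eci1, an auxiliary enzyme for unsaturated fatty acids, differed by −0.19. The median stayed between −0.04 and −0.01 when each animal was left out. Oxidative phosphorylation genes (42 tested, 20 higher and 22 lower) had a median of −0.01, the tricarboxylic acid cycle genes (19 tested) −0.02 and the peroxisomal and microsomal oxidation genes (18 tested, 9 in each direction) −0.01.

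Genes that build fatty acids were mostly lower in KO on chow, though none was called. Of 20 de novo lipogenesis genes, 17 were lower and 3 higher, against 49.9% of all genes higher, and the median was −0.18. An unadjusted limma p below 0.05 was reached by 1 of the lower genes, against 2.18% of all genes in that direction. Groups did not overlap for 5 of the 20, against 3.10% of all genes. Acss2, which makes acetyl coenzyme A from acetate, read 9.41, 9.24, 9.04 and 8.92 in WT and 8.79, 8.43, 8.52 and 8.76 in KO, without overlap (−0.53, limma adjusted p = 0.999). Acly, which makes it from citrate, read 9.32, 9.60, 9.45 and 9.30 in WT and 9.33, 8.97, 8.68 and 8.81 in KO, with KO 1 inside the WT range (−0.47). Fatty acid synthase (Fasn) differed by −0.45, Thrsp, which promotes lipogenesis, by −0.35 and pyruvate kinase (Pklr) by −0.23. The median was between −0.21 and −0.13 when each animal was left out. On HFHS the median of the same list was 0.25 in males and 0.25 in females.

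Cholesterol synthesis genes had the same sign on chow, with 19 of 20 lower in KO, 0 called and a median of −0.24. An unadjusted limma p below 0.05 was reached by 1 of the lower genes, against 2.18% of all genes in that direction. Groups without overlap were seen for 0 of the 20, against 3.10% of all genes. Dhcr7, the last enzyme of the pathway, read 10.07, 10.52, 9.84 and 9.98 in WT and 9.92, 9.47, 9.59 and 9.61 in KO (−0.46, limma adjusted p = 0.999). WT 2 was the highest animal and WT 3 lay below KO 1. Idi1, an isomerase of the isoprenoid steps, differed by −0.38, Pmvk by −0.44, Hmgcs1 by −0.53 and Sqle, the squalene epoxidase, by −0.86 with WT 2 at 8.53. The median was −0.15 without WT 2 and −0.35 without WT 3. It was 0.41 in males on HFHS and −0.03 in females.

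Chaperones and folding enzymes of the endoplasmic reticulum lay higher in KO on chow. Of 23 genes tested, 21 were higher, against 49.9% of all genes, 6 of them with an unadjusted p below 0.05, against 2.20% of all genes in that direction, and 0 were called. The median was 0.17. Creld2, a protein disulfide isomerase-like gene of the unfolded protein response, read 7.31, 7.87, 7.70 and 8.27 in WT and 8.06, 8.20, 9.04 and 8.92 in KO (0.77, limma adjusted p = 0.773). KO 3 and KO 4 were above every WT animal, and KO 1 and KO 2 were below WT 4. Pdia4, a disulfide isomerase, read 9.85, 10.16, 10.09 and 10.21 in WT and 10.37, 10.25, 10.54 and 10.49 in KO, without overlap (0.34, adjusted p = 0.984). The chaperone gene Hyou1 differed by 0.47, Derl3, which acts in the export of misfolded proteins, by 0.68, Hspa5, the main chaperone of this compartment, by 0.20, and Xbp1, a transcription factor of the response, by −0.21.

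The list mean per animal, relative to all 8, was −0.33 in WT 1 and −0.07 to −0.01 in the other WT animals, and −0.04, −0.02, 0.26 and 0.23 in KO 1 to 4. The difference was thus carried by low values in WT 1 and high values in KO 3 and KO 4, while KO 1 and KO 2 lay among the WT animals. The median was 0.12 without WT 1 and 0.25 without KO 1. It was 0.11 in males and −0.03 in females on HFHS.

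The endoplasmic reticulum stress response element, CCAAT followed after 9 bases of any kind by CCACG, is the promoter motif through which stress factors act on these chaperone genes. It was searched on both strands of the RefSeq promoter windows (GRCm38.p6, 300 bases). It was found in 9 of 20 list genes with a window (45.0%), against 37 of 27025 genes (0.137%). The list was drawn up from chaperone and stress genes, the kind this motif is known for. A high share therefore follows from the choice of genes and says nothing about these animals. The sites are printed as a sequence feature shared by list members. Each is written 5′ to 3′ in the direction that reads CCAAT, with 10 bases on each side and the fixed letters in capitals, and Hsp90b1 holds a pair.
Creld2: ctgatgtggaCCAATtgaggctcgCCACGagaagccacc
Derl3: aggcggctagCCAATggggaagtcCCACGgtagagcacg
Pdia6: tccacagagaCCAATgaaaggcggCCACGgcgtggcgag
Hspa5: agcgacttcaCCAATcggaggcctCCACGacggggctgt
Hsp90b1: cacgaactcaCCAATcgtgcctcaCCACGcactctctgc
Hsp90b1: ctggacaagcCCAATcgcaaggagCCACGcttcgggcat
Dnajc3: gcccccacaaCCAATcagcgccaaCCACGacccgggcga
Syvn1: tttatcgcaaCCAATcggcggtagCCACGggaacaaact
Canx: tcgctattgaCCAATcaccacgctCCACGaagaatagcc
Calr: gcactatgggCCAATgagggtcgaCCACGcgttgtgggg
The site of Creld2 spans chr15:88819510-88819548 and that of Derl3 chr10:75893232-75893270, both on the strand opposite to the gene. All 9 genes with a match were higher in KO, from 0.04 for Calr to 0.77 for Creld2, with a median of 0.17. Of the 11 tested genes whose window had no match, 9 were higher, with a median of 0.09. A match is a run of letters and was not tested as a site. Genes with and without a match were not compared by a test.

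**Figure D4:**
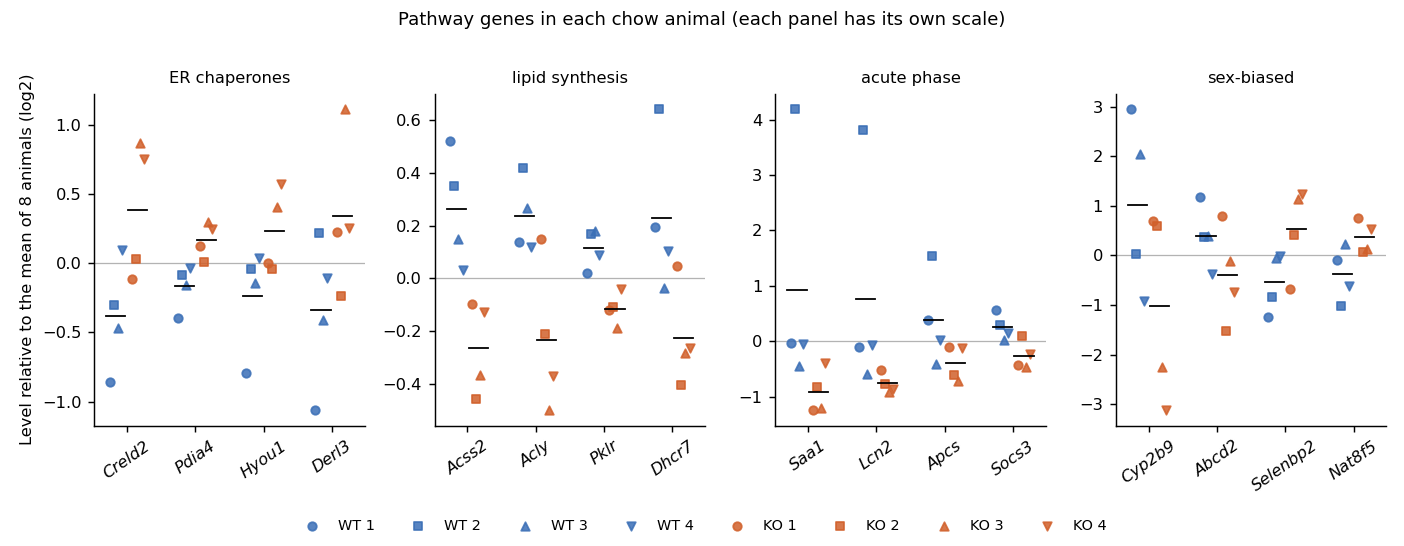
Level of 16 pathway genes in each chow animal, relative to the mean of the 8 animals (log2, vertical axis, a scale for each panel). Blue marks WT and orange KO, the marker shape gives the animal number and bars are group means. WT 2 stands alone in Saa1 and Lcn2, WT 1 is lowest for Creld2, Hyou1 and Derl3, and the KO animals lie below the WT animals for Acss2 and Pklr.

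The size of the difference in inflammatory genes came mainly from WT 2, though most acute phase genes stayed lower in KO without it. Saa1, the acute phase serum amyloid gene, read 6.19, 10.43, 5.79 and 6.18 in WT and 4.98, 5.41, 5.02 and 5.84 in KO (−1.83, limma adjusted p = 0.999). Lcn2, an iron-binding acute phase gene, read 7.92, 11.85, 7.43 and 7.96 in WT and 7.51, 7.26, 7.12 and 7.17 in KO (−1.53). In both genes WT 2 was over 3 log2 units above every other animal. Of 29 acute phase genes tested, 22 were lower in KO, 6 with an unadjusted p below 0.05 against 2.18% of all genes in that direction, and 0 were called. The list median was −0.25 with all animals and −0.07 without WT 2, whose mean over the list was 1.07 against −0.23 to 0.02 in the other 7 animals. Without WT 2, 20 of the 29 genes were lower and 9 higher. Socs3, the feedback inhibitor of cytokine signalling, differed by −0.52 with WT 1 highest at 5.92, and Apcs by −0.78.

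The other immune lists varied with the same animal. The interferon response genes (29 tested, 22 lower) had a median of −0.10 with all animals and 0.02 without WT 2, with Bst2 the only called member. That median was −0.03 without KO 3, −0.17 without WT 1, −0.20 without WT 3 and −0.19 without KO 4. The genes of antigen presentation (13 tested, 10 lower) went from −0.11 to 0.08 and the macrophage markers (19 tested, 15 lower) from −0.11 to 0.08. Antigen presentation was at −0.05 without KO 1, −0.06 without KO 3, −0.22 without WT 4 and −0.18 without KO 4, and the macrophage markers were at −0.17 without WT 1, WT 3 or KO 4 and −0.19 without WT 4. The mean of the macrophage markers was 0.71 in WT 2 and between −0.25 and 0.19 in the other animals. Mpeg1, a macrophage pore-forming protein gene, read 8.67 in WT 2 and 6.54 to 7.35 elsewhere. Lymphocyte markers (14 tested, 11 lower) had a median of −0.16, and −0.11 without WT 2. An unadjusted limma p below 0.05 was reached by 2 of the lower markers, against 2.18% of all genes in that direction. Cd79b, a subunit of the B cell receptor, read 5.08, 5.55, 5.24 and 5.02 in WT and 4.73, 4.56, 4.75 and 4.78 in KO, without overlap (−0.51, limma adjusted p = 0.999). Its partner Cd79a differed by −0.48 from WT levels of 4.09 to 4.82, near the table median. The part of the immune state of WT 2 in other differences was not tested beyond leaving that animal out.

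**Figure D5:**
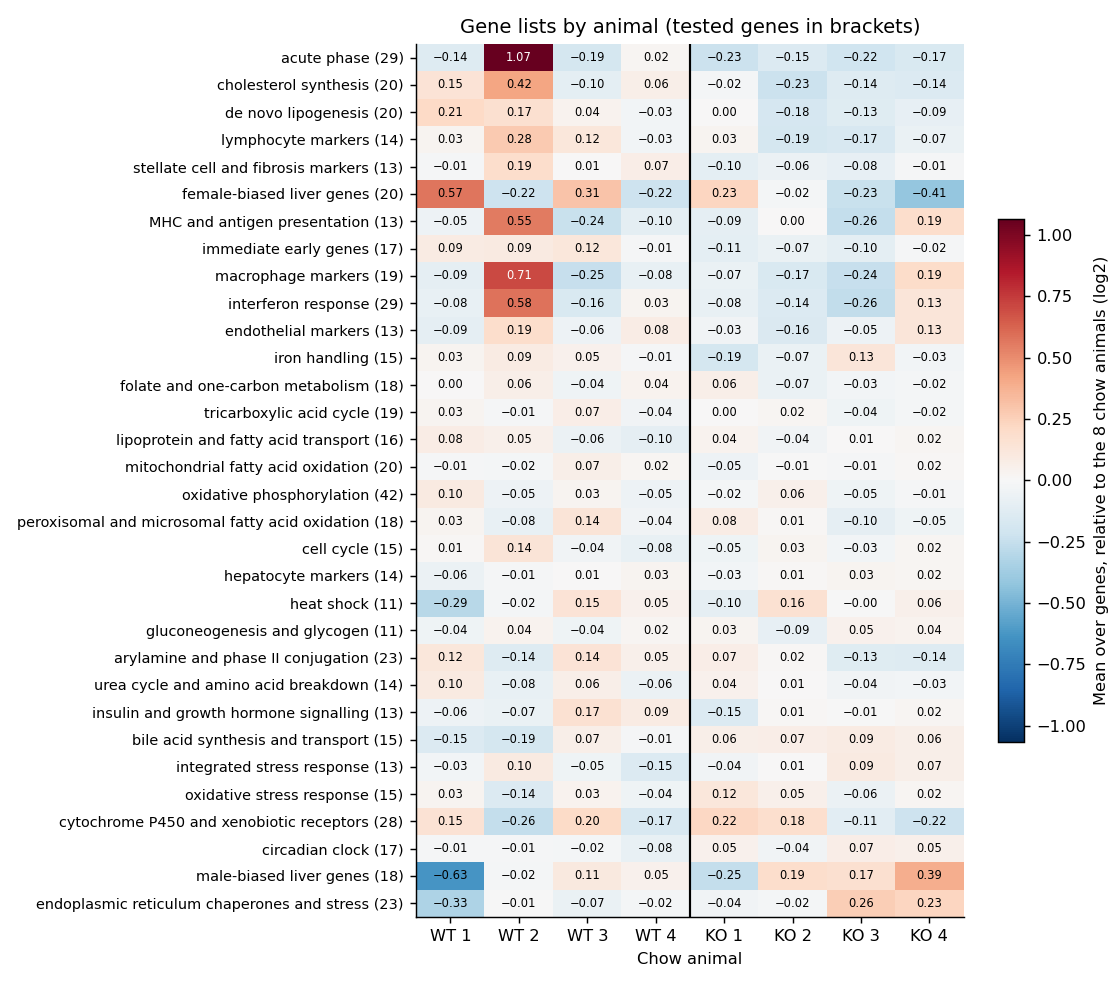
Mean over the tested genes of each list in each chow animal, relative to the mean of the 8 animals (log2, colour and printed value), for the lists with at least 10 tested genes, ordered by median KO minus WT difference. WT 2 has the highest mean for acute phase (1.07), macrophage (0.71) and interferon (0.58) genes, and WT 1 the lowest for male-biased genes (−0.63).

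Genes that differ between male and female liver under growth hormone control varied widely among these males. Of 18 male-biased genes, 14 were higher in KO and 0 were called, with a median of 0.15 that became 0.01 without WT 1, 0.08 without KO 3, 0.25 without WT 3 and 0.27 without KO 1. The mean of the list was −0.63 in WT 1, −0.25 in KO 1 and −0.02 to 0.39 in the other animals. Of 20 female-biased genes 14 were lower in KO, with a median of −0.13 and a mean of 0.57 in WT 1. That median was −0.04 without WT 1 (11 lower), −0.02 without WT 3 (11 lower), −0.03 without KO 3 (12 lower), −0.05 without KO 4 and −0.21 without KO 1. Cyp2b9, a female-biased cytochrome P450, read 9.47, 6.53, 8.55 and 5.58 in WT and 7.20, 7.10, 4.25 and 3.38 in KO (−2.05, limma adjusted p = 0.999). It spanned over 3 log2 units within each group, and the groups overlapped. Selenbp2, a male-biased gene, read 6.82, 7.23, 8.02 and 8.06 in WT and 7.38, 8.47, 9.20 and 9.31 in KO (1.06). Nat8f5, of another acetyltransferase family than the Nat genes, differed by 0.75 and Cish, a growth hormone target, by −0.86. Abcd2, a peroxisomal fatty acid transporter, differed by −0.79 and Sult2a2, a sulfotransferase, by −0.90 from WT levels that were all under the table median.

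Outside Nat2, conjugation genes lay near WT as a list, and most cytochrome P450 and receptor genes were slightly higher in KO. Among 23 tested genes of arylamine and phase II conjugation, Nat2 was the only one called, 12 were higher and 11 lower, and the median was 0.03. Ugt2b1, a glucuronosyltransferase, read 12.18, 12.01, 12.20 and 12.22 in WT and 12.25, 12.35, 12.34 and 12.58 in KO, a small difference without overlap (0.22, limma adjusted p = 0.999). Nr1i3, the xenobiotic receptor CAR, read 9.04, 9.10, 9.01 and 9.05 in WT and 9.55, 9.34, 9.35 and 9.36 in KO, again without overlap (0.35, adjusted p = 0.999). Of 28 cytochrome P450 and receptor genes 21 were higher, with a median of 0.09 that was 0.03 without WT 2 or KO 1 and 0.05 without WT 4. The count of higher genes was 16 without WT 2 or without KO 1, 18 without WT 4 and 23 without KO 3. Gstp1 differed by 0.42.

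Bile acid genes were higher in 13 of 15 cases, by a median of 0.05. The count was 11 without WT 1 or without WT 2, and the median was 0.09 without WT 3. Cyp8b1, which sets the share of cholic acid, read 8.38, 7.32, 8.28 and 8.32 in WT and 9.01, 8.63, 8.48 and 8.27 in KO (0.52, limma adjusted p = 0.999), with WT 2 about 1 log2 unit under the other WT animals. Hsd3b7, an early enzyme of bile acid synthesis, read 9.23, 9.12, 9.10 and 8.98 in WT and 8.79, 8.83, 8.77 and 8.98 in KO (−0.27). Among lipoprotein genes Apoc2, the activator of lipoprotein lipase, differed by 0.54 and Apoa5 by −0.32. Clock genes (17 tested, 12 higher) had a median of 0.09, which was 0.03 without KO 3, 0.05 without WT 1 or KO 4 and 0.06 without WT 3. Arntl, the core activator of the clock, differed by −0.38 and its repressor Per2 by 0.24, with Per2 at 6.36 to 6.57 in WT and 6.70 to 6.78 in KO.

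The mean per animal did not overlap between the genotypes in 2 of the 41 lists, a share near the 3.10% of single genes without overlap. The 17 immediate early genes had means of −0.01 to 0.12 in WT and −0.11 to −0.02 in KO, groups that nearly touched, with a median difference of −0.11 that lay between −0.15 and −0.08 when each animal was left out. Myc, a growth regulator, read 7.02, 5.21, 8.37 and 6.47 in WT and 5.61, 5.16, 5.68 and 5.73 in KO (−1.22, limma adjusted p = 0.999), with WT 3 highest and WT 2 within the KO range. The 13 markers of stellate cells and fibrosis had means of −0.01 to 0.19 in WT and −0.10 to −0.01 in KO, again nearly touching, with a median difference of −0.15 and 11 members lower. No member of either list was called.

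Whether the chow difference was itself different from that on HFHS was tested in males as an interaction. It called 0 of 13871 genes by limma (0%), with 800 at an unadjusted p below 0.05 (5.77%). Diet and array batch overlap in the males apart from repeat arrays that were not used here, so a batch effect that depends on genotype cannot be told apart from this interaction. Setdb2 had an interaction p of 0.000401 (limma adjusted p = 0.718). The lipogenic genes Acss2, Acly and Pklr and the sterol gene Dhcr7 had unadjusted p values of 0.0034, 0.0051, 0.0033 and 0.0040, and none passed the adjustment. For Acss2 the difference was −0.53 on chow and 0.49 on HFHS, for Acly −0.47 and 0.67, for Pklr −0.23 and 0.41, and for Dhcr7 −0.46 and 0.64. Setdb2 and most named list genes were chosen for a small p on chow. The interaction contains the chow difference, so that choice favours small interaction p values. Interaction values of the other members of these lists are not given here.

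Single animals decided which genes joined the 5 calls. Nat2, Zfp963 and Bst2 were called whichever animal was left out. Leaving out WT 1, KO 1, KO 3 or KO 4 ended the call of Zfp868 (highest limma adjusted p 0.0733), and leaving out KO 4 ended that of Mvb12a (0.0503). On chromosome 8, Usp38 joined the calls without WT 3 and Slc18a1 without KO 3. Off chromosome 8 a gene was called in 3 of the 8 fits with an animal left out, a different one each time. These were Setdb2 without WT 3 (adjusted p = 0.00342), Ap3s1 without WT 2 (−1.56, adjusted p = 0.0361) and Trim34a without KO 1 (adjusted p = 0.0439). When the spread was estimated from the 8 chow arrays alone, Nat2 and Zfp963 remained as the only calls, and Bst2 had an adjusted p of 0.142.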

How the data were processed

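Total liver RNA was measured on 1-colour expression arrays. The authors deposited log2 values made by RMA in affy 1.48.0 under R 3.4.3, per the submitters' processing notes, and they were used unchanged. The sources used here do not state a genome build. Of 25428 probe sets, 24705 had 1 symbol, 723 had none and 24673 matched the RefSeq gene table (GRCm38.p6), used for names, chromosome and order only. Where a symbol had several probe sets the brightest was kept.

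Differences were fitted with limma 3.58.1 (lmFit, eBayes; R 4.3.3) on 20 arrays, 1 per animal and 6 group means, two-sided, with Benjamini-Hochberg adjustment over 13871 genes. The number of arrays limits the precision. The fit was also run on simulated data, with independent noise for each gene and known shifts added to the chow KO arrays. Those data lack deviations that many genes of an animal share, so the run cannot show how such deviations affect the calls. Genes named were the Nat genes, the called genes, the 10 smallest p values per direction and the 5 largest differences without overlap per direction off chromosome 8 (predicted genes left out), the 12 next on chromosome 8, up to 4 per list, and genes named in an earlier analysis. Alb, Trim34a, Trim30a, the Phf11 genes and a few list members were added after their values were seen. The comparison, the 41 lists and the rules were chosen with earlier results of these data known, so lists are described without a set test. Of 718 list genes 656 were measured. Alternatives changed the filter, scaling, probe sets, variance model, arrays, replicate block or animals. Figures used Python 3.11.15 and matplotlib 3.10.9.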

Additional observations from a re-analysis of the deposited data

Results flagged for a closer look

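Each chow group of 4 animals was examined for 1 animal far from the other 3 (Dixon's test at its 95% critical value), for the named genes and 41 list means. Of 286 groups 19 were flagged, and chance flags about 5% of groups. WT groups gave 13 of the flags and KO groups 6, and WT 2 alone gave 7.

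Among the genes of chromosome 8, WT 4 was low for Nat2 (6.42 against 6.79 to 6.85), KO 3 was high for Bst2 (10.36 against 8.72 to 8.77), WT 3 was low for Pde4c (5.01 against 5.48 to 5.55) and WT 3 was low for Junb (5.53 against 5.96 to 6.04).

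WT 2 stood apart for Saa1 (10.43 against 5.79 to 6.19), Lcn2 (11.85 against 7.43 to 7.96), Zc3h4 (6.66 against 6.18 to 6.24), Cyp8b1 (7.32 against 8.28 to 8.38) and Ugt2b1 (12.01 against 12.18 to 12.22). It also stood apart in the mean of the acute phase list (1.07 against −0.19 to 0.02) and of the pancreas markers (−0.26 against 0.05 to 0.07).

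KO 1 stood apart for Cnp (4.18 against 4.61 to 4.67), Nr1i3 (9.55 against 9.34 to 9.36) and Trim34a (6.13 against 4.15 to 4.46). Of the other list means, WT 1 was low for male-biased genes (−0.63 against −0.02 to 0.11), WT 4 was low for clock genes (−0.08 against −0.02 to −0.01) and WT 3 was low for cholangiocyte markers (−0.11 against 0.14 to 0.17). KO 3 was high for bile acid genes (0.09 against 0.06 to 0.07) and KO 2 was low for gluconeogenesis (−0.09 against 0.03 to 0.05).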

How the results depend on the processing

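The count of 5 called genes became 2 (Nat2 and Zfp963) with only the 8 chow arrays, with array weights on them, and with the replicate block. It ranged from 3 to 7 with 1 animal left out. Same-numbered KO and WT animals deviated together with correlations of 0.14, −0.07, 0.00 and −0.04. The labels do not state whether the numbers pair the samples, and these correlations cannot decide it. The count off chromosome 8 ranged from 0 to 1 with 1 animal left out. The interaction count was 1 (Hamp) without male KO 1 on HFHS, a check added after the data were seen, with a range of 0 to 1. The cause of these shifts was not tested, apart from fewer arrays. Nat3 differed by 1.03 to 1.32 with 1 animal left out, and where a WT animal was left out its exact permutation p was 0.0571. With 1 animal left out, the list medians ranged from 0.031 to 0.10 for clock genes, from −0.091 to 0.019 for cell cycle genes and from −0.10 to 0.10 for the 3 neutrophil markers. The median of the erythroid markers was 0.04 and became 0.25 under the stricter filter, which tests fewer genes. The signal of Nat1 and Nat3 under the table median limits what their differences show.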
